A study of Mus musculus with 64 samples.

Results

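Omental adipose tissue of 5-month-old mice with body-wide inactivation of Myc (labelled MycKO, called KO here) was compared with the same tissue of wild-type mice of that age (WT). The members were the 6 KO and 6 WT adipose libraries of that age, which are 12 of the 64 libraries of a series that also holds liver, skeletal muscle and animals of 20 months. KO mice came from a cross of lines on B6.129 and B6.129S6 backgrounds, with the alleles Gt(ROSA)26Sortm1(cre/ERT2)Tyj and Myctm2Fwa. These give a tamoxifen-activated Cre recombinase (CreER) at the Gt(ROSA)26Sor locus, which is active in most tissues, and a Myc gene flanked by loxP sites. WT mice were of the strain C57/B6. Strain background, the presence of Cre and the loss of Myc therefore cannot be told apart in this comparison. Per the labels, both genotypes were injected with tamoxifen in corn oil on 5 days around weaning, at 75 mg/kg, once they weighed at least 15 g, so the WT libraries carry the exposure to the drug as well.

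Myc is a transcription factor that binds DNA as a dimer with Max, preferentially at the E-box CACGTG. It is known for raising the transcription of genes for ribosome assembly, nucleotide synthesis, mitochondrial function and cell division. Adipose tissue stores triglyceride in adipocytes, and it also holds progenitors, vessels, mesothelium and immune cells, all of which contribute RNA to a bulk library.

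Each library held 15.9 to 27.2 M recovered reads on genes (M for mega). Expression is given as the deposited CPM, the read level as scaled by the authors, and 13686 genes with CPM above 1 in at least 5 of the 12 libraries were tested. A log2 fold change is the KO mean minus the WT mean of log2(CPM + 1), and at low read levels it is smaller than the true change. All 14 adipocyte markers and all 12 mesothelial markers exceeded 1 CPM in all 12 libraries. Xist was present in 4 libraries (K5F5116, K5F5118, W5F5041 and W5F5042), and the other 8 expressed the Y-linked Ddx3y.

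A further split ran through these 12 libraries. Summed over 24 epididymis markers, K5F4284 held 8631 CPM, K5F5248 held 5611, K5F5218 held 1180 and W5F5299 held 1168. The other 8 young libraries held 0.116 to 1.16 CPM. Crisp1, which encodes a secretory protein of the epididymis, made the largest contribution, with 791 to 5461 CPM in the 4 libraries and at most 0.319 CPM elsewhere. Gpx5, Lcn9 and Lcn10 of the same list were at 0 in all 12 libraries. The 4 libraries are 3 of 6 KO and 1 of 6 WT libraries, so this split is unequal between the genotypes. Summed adipocyte markers were 12784 to 14787 CPM in the 3 KO libraries with epididymis markers. They were 24741 to 40005 CPM in the other 3 KO libraries, and 24185 to 41002 CPM in the 6 WT libraries. The called genes, most gene lists and most other named genes are therefore given with and without these 4 libraries. The smaller set is unequal in another way, since 2 of its 3 KO and 2 of its 5 WT libraries have Xist. Values without the 4 libraries carry that imbalance. With the epididymis marker sum as a covariate, Wnt4 and Pvt1 alone were called. The part of epididymal RNA in the results was not tested beyond these fits. In bulk tissue, fewer cells of a type and less RNA per cell cannot be told apart.

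**Figure D1:**
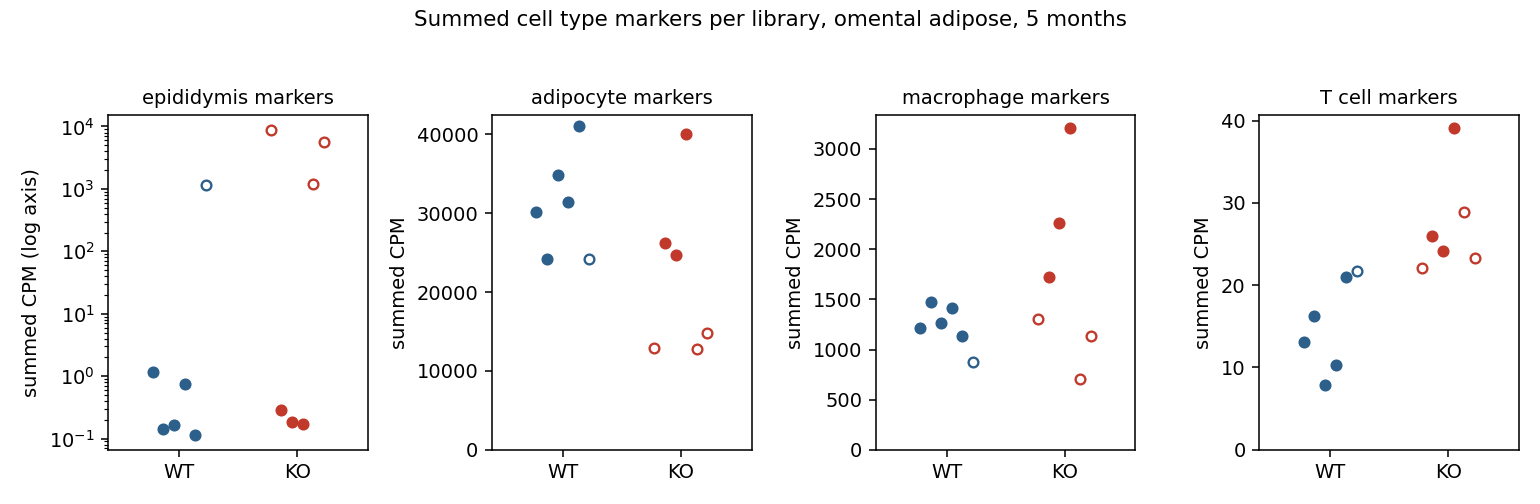
Summed CPM of epididymis, adipocyte, macrophage and T cell markers in each young adipose library, by genotype. Each point is a library, and open points are the 4 libraries high in epididymis markers. The epididymis axis is logarithmic. The 6 KO libraries hold 22.1 to 39.1 CPM of T cell markers and the 6 WT libraries 7.91 to 21.8 CPM.

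At 5 months, 15 of 13686 genes were called at an adjusted p under 0.05 by limma with Benjamini-Hochberg adjustment (0.11%). Of these, 5 were higher in KO (0.0365%) and 10 were lower (0.0731%). At an unadjusted p under 0.05, 636 genes were higher (4.65%) and 1016 lower (7.42%), 12.1% of the genes in all. The groups did not overlap for 41 genes (0.3%), 13 higher (0.095%) and 28 lower (0.205%), and 12 of the 15 called genes were among them. The higher genes were Wnt4, Pvt1, Rasgef1b, Chl1 and Id2. The lower genes described here were Myc itself, Coasy, Atic, Cdkn2c, Dennd2d, Dkc1, Apmap, Chml and Me2. The calls, and the standard errors given for this comparison, rest on the 22-library fit that shares its estimate of spread with the 20-month adipose groups. Fitted on the 12 young libraries alone, only Wnt4 and Pvt1 were called.

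**Figure D2:**
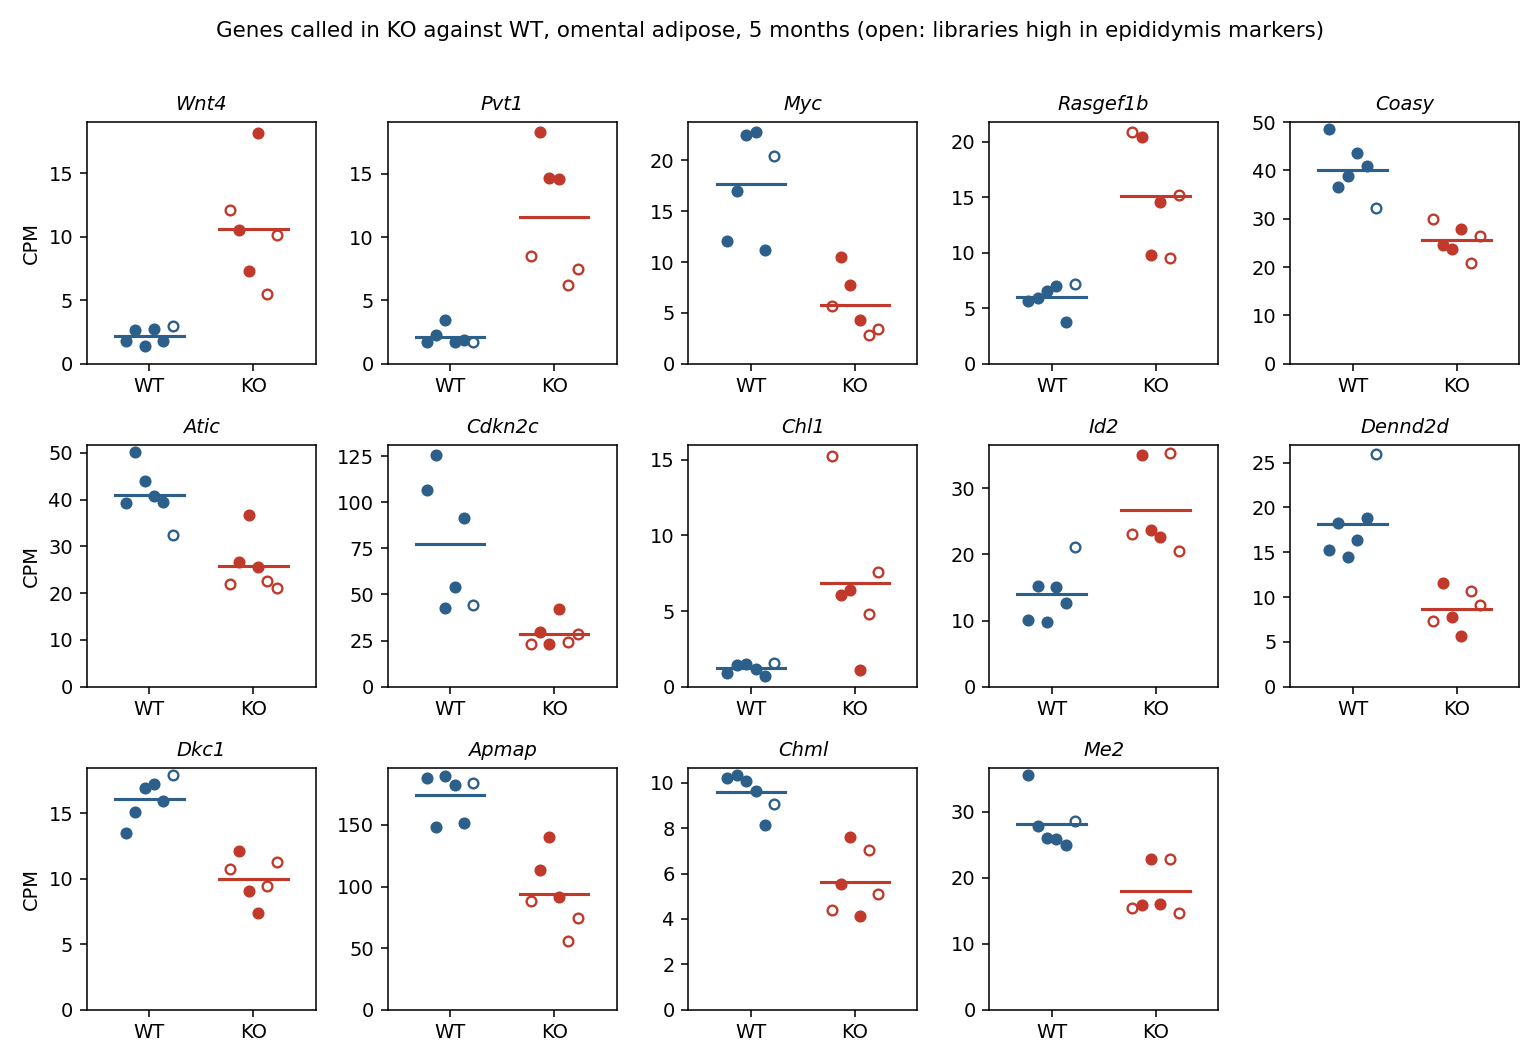
CPM of 14 of the called genes in each young adipose library, on linear axes from 0. Points are libraries, open points are the libraries high in epididymis markers, and lines are group means (n = 6 each). For Myc the KO libraries lie between 2.87 and 10.5 CPM and the WT libraries between 11.2 and 22.8 CPM.

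The targeted gene was examined first. Myc (gene ID 17869, chromosome 15, 61985341 to 61990361, GRCm38.p6) had a lowest, median and highest value of 2.87, 5.03 and 10.5 CPM in KO, against 11.2, 18.7 and 22.8 CPM in WT. Every KO value was under every WT value, and Myc reads remained in each KO library. The log2 difference was -1.52 (standard error (SE) 0.25, n = 6 each). An exact permutation test, two-sided, gave p = 0.00216, which is the lowest value open to 6 against 6 libraries. Without the 4 libraries high in epididymis markers it was -1.10 (3 KO, 5 WT; exact permutation p 0.0357, where 0.0179 is the smallest possible). Within the libraries without Xist it was -1.39 (exact permutation p 0.0286) and within those with Xist -1.79 (exact permutation p 0.333), each the lowest value those numbers allow. The adjusted limma p was 0.0158 over all libraries and 0.128 without those 4. The counts cover the whole gene, so reads from exons outside the deleted part and reads from undeleted alleles are not separated.

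The genes around the engineered loci were read next. Pvt1, a long non-coding RNA gene that lies 0.0476 Mb from Myc on chromosome 15 (62037986 to 62260215), rose. KO libraries held 6.21, 11.5 and 18.3 CPM (lowest, median, highest) and WT libraries 1.71, 1.80 and 3.42 CPM. All 6 KO libraries lay above every WT library, with a log2 fold change of 1.95 (SE 0.22, limma adjusted p 9.7e-05). Without the libraries high in epididymis markers the log2 fold change was 2.42 (limma adjusted p 1.4e-05). The 3 KO libraries with epididymis markers had 6.21 to 8.49 CPM of Pvt1, and the other 3 had 14.6 to 18.3 CPM. Gt(ROSA)26Sor, the non-coding locus that carries the Cre insertion, had a KO mean of 3.71 ± 1.52 CPM against a WT mean of 7.20 ± 0.66 CPM (SD, n = 6 each). Its log2 difference of -0.85 missed the threshold (SE 0.18, limma adjusted p 0.0628), and 5 of 6 KO libraries lay below every WT library. It was -0.65 without the libraries high in epididymis markers.

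The other genes of the Myc network showed no called difference. Of 12 tested members, which include the partner Max and the Mxd and Mnt proteins that compete with Myc for it, Myc was the only called gene. Max had a KO mean of 41.4 ± 3.68 CPM against a WT mean of 36.2 ± 1.65 CPM (log2 difference 0.19, limma adjusted p 0.408; 0.29 without the libraries high in epididymis markers). Mycl ranged from 13.9 to 84.1 CPM in KO and from 6.01 to 71.1 CPM in WT (0.40, limma adjusted p 0.833; 0.69 without those libraries). Mycn was at or under 2.33 CPM in all 12 libraries, with a log2 difference of 0.01 (limma adjusted p 0.995).

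Among the genes that rose, Wnt4 had the lowest p. Wnt4 (chromosome 4, 137277635 to 137299501) encodes a secreted Wnt ligand. KO libraries held 5.48, 10.3 and 18.2 CPM (lowest, median, highest), and WT libraries 1.40, 2.23 and 2.95 CPM. The groups did not overlap, and the log2 fold change was 1.79 (SE 0.20, limma adjusted p 9.7e-05, n = 6 each). It was 2.02 without the libraries high in epididymis markers (limma adjusted p 4.5e-04). Of the 18 tested Wnt ligands and secreted Wnt antagonists, Wnt4 alone was called, and 11 of the 18 had log2 differences below 0.

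Rasgef1b, a gene for a Ras-family guanine nucleotide exchange factor, rose from 6.02 ± 1.26 to 15.1 ± 4.93 CPM. All 6 KO libraries lay above every WT library (log2 fold change 1.16, SE 0.19, limma adjusted p 0.0158). Id2, which encodes an inhibitor of helix-loop-helix transcription factors, rose from 14.0 ± 4.19 to 26.7 ± 6.62 CPM, with 5 of 6 KO libraries above every WT library (0.90, SE 0.17, limma adjusted p 0.0301). Both were also called without the libraries high in epididymis markers, at 1.2 and 1.05. Chl1, a neural cell adhesion gene, rose from 1.21 ± 0.33 to 6.86 ± 4.66 CPM (1.61, SE 0.30, limma adjusted p 0.0301). Its KO values were uneven: K5F5118 held 1.13 CPM, within the WT range, and K5F4284 held 15.2 CPM. Without the libraries high in epididymis markers Chl1 had a log2 difference of 1.17 and was not called (limma adjusted p 0.14).

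Cdkn2c encodes the cyclin-dependent kinase inhibitor p18. It was at 22.9, 26.4 and 42.1 CPM in KO and at 42.6, 72.8 and 126 CPM in WT (lowest, median, highest). The groups did not overlap, though the highest KO and the lowest WT value were close, and the WT libraries spread widely (log2 fold change -1.32, SE 0.24, limma adjusted p 0.0301). Of the 7 tested cyclin-dependent kinase inhibitors, Cdkn2c alone was called. Cdkn1a, which encodes p21, ranged from 22.8 to 266 CPM in KO and from 22.1 to 242 CPM in WT (0.53, limma adjusted p 0.741). Without the libraries high in epididymis markers Cdkn1a stood at 1.48 and was not called (limma adjusted p 0.257), where 3 KO libraries had a mean of 223 CPM and 5 WT libraries one of 110 CPM. Cdkn2a was at or under 2.03 CPM in every young library (0.11, limma adjusted p 0.907).

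Dkc1 encodes dyskerin, a core protein of the particles that pseudouridylate ribosomal RNA and of telomerase. It was at 7.36, 10.1 and 12.1 CPM in KO and at 13.4, 16.4 and 17.9 CPM in WT. The groups did not overlap (log2 fold change -0.65, SE 0.12, limma adjusted p 0.0416). Of 64 tested genes for ribosome biogenesis and the nucleolus, Dkc1 was the only called gene. Tsr1, a ribosome maturation factor, came next at -0.53 (limma adjusted p 0.259), and Ncl, which encodes nucleolin, differed by -0.09 (limma adjusted p 0.884).

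Coasy, whose product makes coenzyme A, had a KO mean of 25.5 ± 3.20 CPM against a WT mean of 40.1 ± 5.70 CPM, with no overlap (log2 fold change -0.63, SE 0.11, limma adjusted p 0.0301). It was the only one of the 10 lower genes still called without the libraries high in epididymis markers (-0.69, limma adjusted p 0.0462). In that set of 3 KO and 5 WT libraries several of the others had log2 differences close to those over 12 libraries. Cdkn2c stood at -1.31, Dennd2d at -0.97, Chml at -0.69, Dkc1 at -0.69 and Me2 at -0.60, with limma adjusted p from 0.0998 to 0.127. The differences of Myc (-1.10), Apmap (-0.59) and Atic (-0.53) were smaller than over 12 libraries. Me2, for mitochondrial malic enzyme, had a KO mean of 17.9 ± 3.83 CPM against a WT mean of 28.1 ± 3.88 CPM, with no overlap (-0.64, limma adjusted p 0.046). Apmap, an adipocyte plasma membrane protein gene, had a KO mean of 93.9 ± 29.7 CPM against a WT mean of 174 ± 18.8 CPM, again with no overlap (-0.94, limma adjusted p 0.0416). The Apmap values of the 3 KO libraries with epididymis markers were 55.7 to 88.0 CPM, and those of the other 3 were 91.4 to 140 CPM. Dennd2d, a gene for a Rab exchange factor, was at 5.63 to 11.5 CPM in KO and 14.5 to 25.9 CPM in WT (-0.998, limma adjusted p 0.0301).

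Chml, for a Rab escort protein, was at 4.11 to 7.59 CPM in KO and 8.13 to 10.3 CPM in WT (-0.70, limma adjusted p 0.046). Chml (175682237 to 175688353) lies within the span of Opn3 on chromosome 1 (175662421 to 175692901). Opn3 itself differed by -1.35 (limma adjusted p 0.0891). The use of strand in counting is not given in the sources used here, so reads of this pair may not be separated. Dennd2d (chromosome 3, 106482431 to 106503030) overlaps the long non-coding RNA gene 2010016I18Rik (106481986 to 106485913), which stood at -1.13 (limma adjusted p 0.31), close to Dennd2d itself. It also shares its other end with Cept1 (-0.39). Dkc1 and Mpp1 (-0.20) overlap only at their ends, as do Crat and Dolpp1 (-0.47), and none of these neighbours was called.

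Atic (chromosome 1, 71557156 to 71579403), whose product catalyses the last steps of purine synthesis, was at 21.1, 24.1 and 36.6 CPM in KO and at 32.5, 40.2 and 50.2 CPM in WT. In KO, 5 of 6 libraries lay below every WT library, the exception being K5F5116 (log2 fold change -0.66, SE 0.12, limma adjusted p 0.0301). The E-box was searched on both strands, as CACGTG, in RefSeq promoter windows of 300 bases (250 before to 50 after an annotated start, GRCm38.p6). It was present in 7.15% of all 32851 windows, and in at least 1 window of 11.6% of the 10867 tested genes that had one. Of the 10 called genes with a window, Atic and Cdkn2c held it, and Pvt1, Myc, Coasy and Me2 were among those not matched. In the nucleotide synthesis list 5 of 21 genes with a window held it (23.8%). The share was 45.5% in the Myc network list, 35.3% in p53 targets, 30.8% in aminoacyl-tRNA synthetases and 28.6% in circadian clock genes. Their median log2 differences were 0.09, 0.02, -0.06 and 0.19. Cell proliferation and fatty acid oxidation genes, with medians of -0.33 and -0.40, had shares of 8.82% and 0%. Whether the E-box goes with a lower level was not tested. The 60-base stretches of the 5 nucleotide synthesis genes are shown because Atic is the called gene whose E-box lies before its start. Nme1 also held the E-box in another window (93968026 to 93968085), which is not shown. They are written 5′ to 3′ along the gene, with the E-box in capitals, and they are a description of letters, not of binding.
Atic, chr1:71557096-71557155, plus strand: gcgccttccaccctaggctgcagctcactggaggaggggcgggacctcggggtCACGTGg
Nme1, chr11:93968273-93968332, minus strand: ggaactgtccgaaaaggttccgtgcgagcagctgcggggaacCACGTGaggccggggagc
Tyms, chr5:30073654-30073713, minus strand: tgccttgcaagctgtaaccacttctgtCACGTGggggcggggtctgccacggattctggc
Paics, chr5:76951072-76951131, plus strand: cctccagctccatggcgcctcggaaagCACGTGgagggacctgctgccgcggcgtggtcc
Impdh2, chr9:108560299-108560358, plus strand: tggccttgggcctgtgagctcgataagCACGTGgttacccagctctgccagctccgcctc

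All 5 of these genes had log2 differences below 0, and Atic alone was called. Nme1, a nucleoside diphosphate kinase gene, stood at -0.69 (limma adjusted p 0.281) and Tyms, for thymidylate synthase, at -0.48 (limma adjusted p 0.37). Paics stood at -0.27 and Impdh2 at -0.21. Over the 24 tested nucleotide synthesis genes, 19 had log2 differences below 0, with a median of -0.25, against 56.6% below 0 and a median of -0.04 over all tested genes. Gart, for another enzyme of purine synthesis, ranged from 27.3 to 29.5 CPM in KO and from 31.4 to 41.2 CPM in WT, without overlap (-0.37, limma adjusted p 0.139). Without the libraries high in epididymis markers, 21 of the 24 were below 0 and the median was -0.34, against 53.8% of all genes below 0 in that set. Cad, whose product starts pyrimidine synthesis, changed sign between these sets, from 0.91 over 12 libraries to -0.34 without the 4.

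After the called genes, the next 15 by p ran from Crat (limma adjusted p 0.0533) to H2-Q4 (0.098). Of these, 14 were lower in KO. They include Crat, for carnitine acetyltransferase (KO 87.2 to 169 CPM, WT 199 to 246 CPM, log2 difference -0.81), and Gys1, for glycogen synthase (-0.84). Ndufs1, a subunit of respiratory complex I, was at 38.9 to 57.2 CPM in KO and 58.1 to 108 CPM in WT (-0.66). Hspd1, for a mitochondrial chaperone, stood at -0.65 and Pdss2, for an enzyme of ubiquinone synthesis, at -0.47. Dolk, Riox2, L3hypdh, Met, Opn3, Cavin2, Gm46430, Tmem143 and Gt(ROSA)26Sor complete the lower genes. H2-Q4, an MHC class I gene, was the higher one, at 65.6 to 129 CPM in KO and 41.5 to 69.8 CPM in WT (0.71). Without the libraries high in epididymis markers, Crat stood at -0.47, Gys1 at -0.64, Ndufs1 at -0.60 and Hspd1 at -0.48. In the same set Cavin2 stood at -0.69, Pdss2 at -0.44 and H2-Q4 at 0.94.

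Respiratory chain and mitochondrial ribosome genes lay lower as groups, without called members. Of 75 tested nuclear genes for oxidative phosphorylation subunits, 74 had log2 differences below 0, with a median of -0.37. None was called, and 15 lay lower at an unadjusted limma p under 0.05, which 7.42% of all tested genes did. Of 77 mitochondrial ribosomal protein genes, 75 were below 0 (median -0.24). Without the libraries high in epididymis markers, the medians were -0.12 (60 of 75 below 0) and -0.08 (51 of 77 below 0). Averaged over the oxidative phosphorylation genes, the level relative to the 12-library mean was lowest in K5F5218 (-0.95 on the log2 scale), W5F5299 (-0.62) and K5F5248 (-0.60). All 3 are libraries high in epididymis markers. K5F4284, also high in them, stood at -0.17, and K5F5116, where these markers sum to 0.182 CPM, at -0.28. Whether the level of this list goes with epididymal RNA was not tested. The level was highest in the KO library K5F5118 (1.02), so the KO libraries spanned the WT range. Leaving out K5F5118 gave a median of -0.59, and leaving out K5F5218 gave -0.21. After scaling to equal library totals, the oxidative phosphorylation median was -0.29 and the mitochondrial ribosomal median -0.16. With edgeR they were -0.17 and -0.13, so their size depended on the scaling and fit.

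Ribosome-related lists moved across 0 with the same libraries. The 64 ribosome biogenesis and nucleolar genes had a median of -0.12 (53 below 0) over the 12 libraries and of 0.02 (29 below 0) without the 4. The 83 cytosolic ribosomal protein genes had a median of -0.15 (69 below 0) and of 0.03 (33 of 82 below 0). No cytosolic ribosomal protein gene was called in either set.

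Adipocyte and lipid genes had no called member either. Of the 34 genes for adipocyte differentiation and lipid storage, 27 were below 0 (median -0.42), and 18 were below 0 without the 4 libraries (median -0.03). Fatty acid oxidation genes had a median of -0.40, and of -0.11 without the 4. Adipoq, for the hormone adiponectin, had a KO mean of 1321 ± 729 CPM against a WT mean of 2100.3 ± 559 CPM (-0.79, limma adjusted p 0.319), and it stood at -0.31 without the 4. Pparg, the master regulator of adipocyte differentiation, differed by -0.21 (limma adjusted p 0.778), and by -0.01 without the 4. Lep, for leptin, spanned 23.7 to 708 CPM in KO and 18.2 to 833 CPM in WT, and its sign depended on the libraries used.

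Some metabolic genes kept their size without the 4 libraries. Slc2a4, for the insulin-responsive glucose transporter GLUT4, was at 8.75, 24.7 and 36.5 CPM in KO and at 33.2, 74.8 and 131 CPM in WT. In KO, 4 of 6 libraries lay below every WT library. The WT values were split, at 109 to 131 CPM in W5F5005, W5F5006 and W5F5277 and at 33.2 to 40.6 CPM in W5F5041, W5F5042 and W5F5299. Among the libraries with Xist the genotypes overlapped, at 36.5 and 22.7 CPM in KO and 33.2 and 37.2 CPM in WT. The log2 difference was -1.58 (limma adjusted p 0.115) over 12 libraries and -1.67 without the 4. Plin1, for the main lipid droplet coat protein of adipocytes, stood at -1.44 and at -1.48. Its WT values were split between the same libraries, at 855 to 913 CPM and at 191 to 450 CPM. Among the libraries with Xist, Plin1 was at 342 and 160 CPM in KO and 252 and 191 CPM in WT. Fasn, for fatty acid synthase, had a KO mean of 296 CPM against a WT mean of 1180 CPM, and stood at -1.60 and at -1.87. The 25 tested lipid synthesis genes had a median of -0.08 over the 12 libraries, which was 0.0049 after scaling to equal library totals. It was -0.60 (22 of 25 below 0) without the 4, and 0 of the 25 were called in either set. Their mean level was highest in the WT libraries W5F5006 (0.94 above the 12-library mean, log2) and W5F5005 (0.56).

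Of 42 tested cell proliferation genes, 38 had log2 differences below 0 (median -0.33), 0 were called and 9 lay lower at an unadjusted limma p under 0.05 (7.42% over all tested genes). Aurkb, a mitotic kinase gene, had a KO mean of 0.865 CPM against a WT mean of 2.41 CPM (-0.66, limma adjusted p 0.354). Top2a, for topoisomerase II, averaged 3 and 8.91 CPM (-0.89). The list's mean level stood at 1.36 above the 12-library mean (log2) in W5F5006 and at -0.28 to 0.26 in the other 11 libraries. Without W5F5006 the list's median was -0.12. Without the libraries high in epididymis markers it was -0.54, a set that keeps W5F5006.

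**Figure D3:**
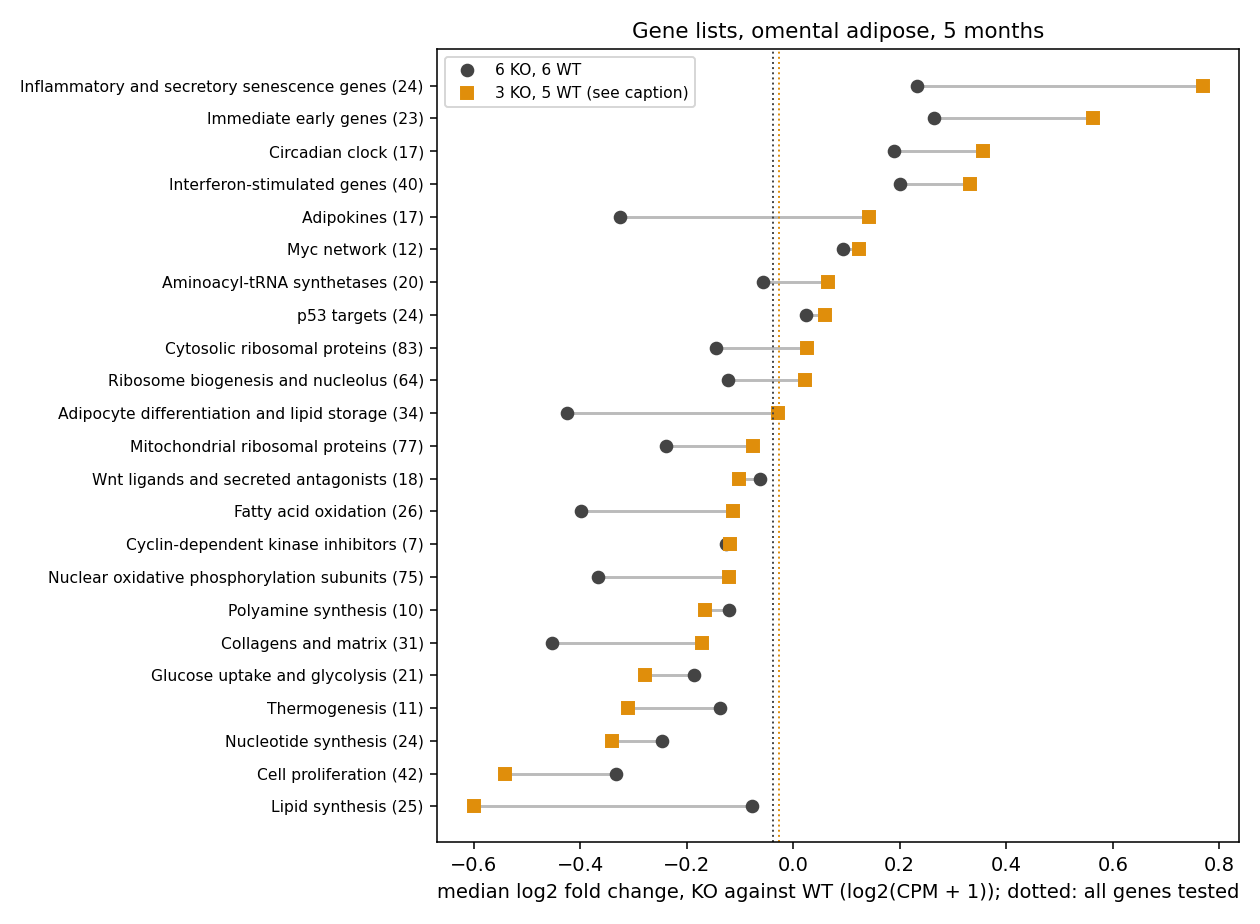
Median log2 fold change, KO against WT, of 23 gene lists (number of tested genes in parentheses) over the 12 young adipose libraries (circles) and over the 8 libraries without those high in epididymis markers (squares). Dotted lines are the medians of all tested genes (-0.04 and -0.03). The oxidative phosphorylation median moves from -0.37 to -0.12, and the inflammatory median from 0.23 to 0.77.

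Markers of immune cells did not all go the same way. All 9 tested T cell markers had log2 differences above 0, with a median of 0.60, and none was called. The summed level of the 11 listed T cell markers was 22.1 to 39.1 CPM in KO and 7.91 to 21.8 CPM in WT, without overlap. Most of them are near the floor, and 1 of the 11 exceeded 1 CPM in all 12 libraries. In 20-month adipose the median log2 difference of the 9 was -0.20. Without the 4 libraries 7 T cell markers were tested, all above 0, with a median of 0.74. Cd3e, a subunit of the T cell receptor complex, had a KO mean of 3.35 CPM against a WT mean of 1.73 CPM (0.69, limma adjusted p 0.275). The 5 tested B and plasma cell markers had 3 above 0 and 2 below, and summed levels overlapped, at 38.4 to 119 CPM in KO and 30.9 to 121 CPM in WT. All 12 tested macrophage markers were above 0 (median 0.23, none called), and without the 4 libraries 11 of 12 were above 0 (median 0.79). Summed macrophage markers then were 1726 to 3211 CPM in 3 KO libraries and 1130 to 1471 CPM in 5 WT libraries. How many of all genes separate the genotypes in this smaller set was not counted. Over all 12 libraries the summed macrophage markers overlapped, at 706 to 3211 CPM in KO and 875 to 1471 CPM in WT.

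Without the 4 libraries, 18 of 12966 genes were called (limma adjusted p under 0.05, 0.139%), 15 higher and 3 lower. Of these, 5 were also called over the 12 libraries: Pvt1, Wnt4, Id2, Rasgef1b and Coasy. Several of the others are genes of macrophages or of inflammation, named here after their values were seen. Vsig4, a complement receptor of resident macrophages, was at 19.9 to 57.5 CPM in 3 KO and 3.56 to 17 CPM in 5 WT libraries (2.24, limma adjusted p 0.0163). Fcgr2b, the inhibitory IgG receptor, was at 68.5 to 113 CPM and 37.5 to 45.8 CPM (1.13, limma adjusted p 0.0163). The chemokine genes Ccl8 (2.21, limma adjusted p 0.0462) and Cxcl1 (1.43, limma adjusted p 0.0456) were called as well. S100a9, Aoah and Oasl1 also rose, and Gm46430 and Gpr27 fell with Coasy. Over all 12 libraries Vsig4, Fcgr2b, Ccl8 and Cxcl1 had the same sign and were not called (limma adjusted p 0.163, 0.103, 0.198 and 0.249). With a fit limited to the 8 young libraries, Pvt1 alone was called.

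Of 24 tested inflammatory and secretory senescence genes, 16 were above 0 over the 12 libraries (median 0.23), and 21 were above 0 without the 4 (median 0.77). Interferon-stimulated genes had medians of 0.20 (28 of 40 above 0) and 0.33. Immediate early genes, which respond to stress and handling of cells, were above 0 for 22 of 23 (median 0.26), and for 23 of 23 without the 4 libraries (median 0.56). With K5F4285 alone left out the median was 0.06, and that library had the highest mean level of these genes. Lcn2, for an acute-phase lipocalin, was at 12.9, 35.1 and 145 CPM in KO and at 3.30, 8.44 and 21.1 CPM in WT (2.15, limma adjusted p 0.098), and stood at 1.41 without the 4.

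The 20-month adipose libraries (5 KO, 5 WT, same strains and treatment) share no library with the young comparison. At 20 months limma called 0 of the 13686 genes, with 267 at an unadjusted p under 0.05 (1.95%). Of the 15 genes called at 5 months, 9 had the same sign at 20 months, and 4 of these had an unadjusted limma p under 0.05. Dkc1 kept its size, at 7.51 ± 1.24 CPM in KO and 11.9 ± 1.49 CPM in WT (SD, n = 5 each; log2 difference -0.60). Pvt1 stood at 0.97, Rasgef1b at 0.69 and Myc at -0.63. Wnt4 was at 1.35 ± 0.17 CPM in KO and 0.97 ± 0.35 CPM in WT at 20 months, a difference of 0.27. Cdkn2c was at 27.9 ± 5.62 and 27.4 ± 6.14 CPM at 20 months, near the level of the young KO libraries. The test of the difference between the ages called 0 genes (limma, 378 or 2.76% at an unadjusted p under 0.05, edgeR on recovered reads 0 called). Wnt4 had the lowest p in that test, with a difference of 1.53 (SE 0.30) and a limma adjusted p of 0.666, so a change of effect with age was not shown for any of the 15.

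**Figure D4:**
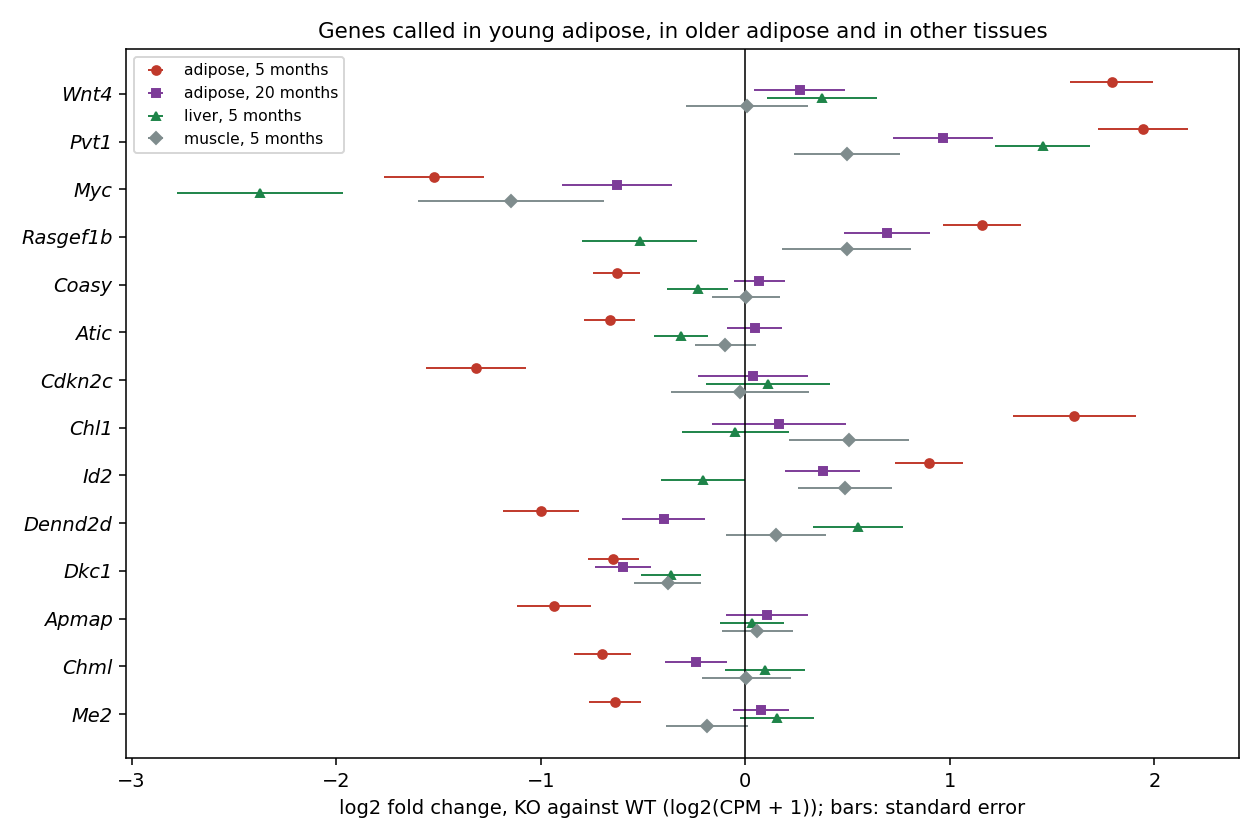
Log2 fold change (KO against WT, log2(CPM + 1)) of 14 genes called in young adipose, in adipose at 5 and 20 months and in liver and muscle at 5 months. Bars are standard errors. Dkc1 lies between -0.65 and -0.36 in all 4 groups, and Dennd2d at -0.998 in young adipose and 0.55 in liver.

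Tissues of the young mice share animals, so tissue differences were tested with the animal as a block over 34 libraries. The KO effect differed between adipose and liver for 4 genes (limma adjusted p 0.0493 for each; 0.0292% of the genes tested). They include Dennd2d (difference -1.55), Dolk (-0.86) and Opn3 (-1.79), which were lower in KO adipose and at 0.06 to 0.55 in liver. Without the block 0 genes were called, and without the libraries high in epididymis markers 2 other genes were. Between adipose and muscle 0 genes differed (limma, 685 at an unadjusted p under 0.05). Dkc1 stood at -0.36 in liver and -0.38 in muscle, and Pvt1 at 1.45 and 0.50.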

How the data were processed

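Poly-A RNA of 12 young omental adipose libraries was sequenced, per the labels' protocols, after extraction with a lipid tissue kit and a directional library kit on Illumina instruments. The authors deposited 1 table of 36333 gene entries with values called CPM, made with CLC Genomics per the file headers. The deposited columns of the 12 libraries sum to 0.529 to 0.753 M (M for mega), not to 1 M, so the unit used is a signal that the authors scaled within each library. Each value of the deposited table was a whole multiple of the value of 1 read (100% within 0.01 of a whole number), which gave read counts. The builds GRCm38.p6 and mm10 are named in the submitters' processing notes, and the counting rules are not given in the sources used here. Names, positions and promoters came from RefSeq tables of GRCm38.p6 (35336 of 36332 IDs matched a symbol).

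The main test was limma 3.58.1 (R 4.3.3) on log2(CPM + 1) with an intensity trend, 4 group means over 22 adipose libraries, Benjamini-Hochberg adjustment over all tested genes and a threshold of 0.05. Myc was also tested by exact permutation. Alternatives used edgeR 4.0.16 and DESeq2 1.42.0 on recovered reads, other scalings (TMM, equal library totals), other filters, covariates and left-out libraries. Scripts were tested on simulated data. Libraries counted as high in epididymis markers held over 10 times the median sum. Genes named are Myc, Mycn, Mycl, Max, Pvt1, Gt(ROSA)26Sor, Wnt4, Cdkn2c, Cdkn1a, Cdkn2a, Lep, Adipoq, Pparg, Ucp1, Odc1, Ncl and Nnt by name, all called genes (1 is not reported here), the next by p up to 30 in all, and the 2 lowest p of each list. Other list members were named for their role or after their values were seen. The comparison, gene lists and markers were chosen with earlier results of these data known. No label says more than that libraries are separate animals by number. The p-values measure the spread between them, which limma pools over all groups in a fit.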

Additional observations from a re-analysis of the deposited data

Results flagged for a closer look

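Single libraries stood far from the other 5 of their group in 6 cases, by Dixon's gap test at the 95% level, over 56 groups of 6 values, where chance gives about 1 in 20. Ucp1, the uncoupling protein of brown and beige adipocytes, was at 68.8 CPM in K5F5118 against 0 to 0.872 CPM in the other KO libraries, and at 6.16 CPM in W5F5042 against 0 to 0.288 CPM in the other WT libraries. Pvt1 was at 3.42 CPM in W5F5041 against 1.71 to 2.29 CPM in the other WT libraries, still below every KO library. Atic was at 36.6 CPM in K5F5116 (21.1 to 26.7 CPM in the other KO libraries), Cdkn2c at 42.1 CPM in K5F5118 (22.9 to 29.6 CPM), and Me2 at 35.6 CPM in W5F5005 (24.9 to 28.6 CPM in the other WT libraries).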

How the results depend on the processing

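All 15 called genes kept their sign in every fit run. The count of called genes at 5 months moved widely: 9 with no filter on low values, 2 with only the 12 young libraries in the fit, 9 with edgeR (4 higher, 5 lower), 298 with DESeq2 (202 higher, 96 lower, all 15 among them), 35 with sex as a covariate, 3 with sample quality weights and 550 over the 8 libraries without Xist, of which 3 of 4 KO and 1 of 4 WT are high in epididymis markers. Added after the data were seen, the epididymis marker sum as a covariate left 2 genes, and the young libraries without the 4 high ones left 1. In the 34-library fit over 3 tissues, 62 genes were called in adipose. Leaving out 1 library gave 3 (W5F5005) to 55 (K5F5118) genes. Wnt4, Pvt1 and Myc were called in all 12 such fits and Rasgef1b in 10. The other 11 were called in 4 to 7, with adjusted p up to 0.163. None of those 11 was called without W5F5005. At 20 months 1 gene was called with no filter and 286 with sample quality weights. For the difference from liver, no animal block ("no replicate block") and a pseudocount of 0.1 each gave 0 genes, and leaving out the libraries high in epididymis markers gave 2, and 5 for muscle. No paired analysis was possible for KO against WT because they are different animals. Myc in the 4 libraries with Xist differed by -1.79 (exact permutation p 0.333, the smallest possible for 2 against 2). Scaling shifted the median of all genes by less than 0.1, but across 0. The median was -0.04 in the main fit, -0.02 with TMM, 0.04 with equal library totals and 0.03 with edgeR. TMM scaling gave 13 called genes and equal library totals 19, with 11 of the 15 among them. With equal totals Dennd2d, Dkc1, Chml and Me2 were not called. With edgeR these were not called either, nor were Chl1 and Apmap. With TMM, Dkc1 and Chml were not called. Genes near 0 changed sign. Mycn was at -0.14 (pseudocount 0.1), -0.10 (quality weights), -0.11 (epididymis covariate) and -0.080 to 0.16 on leaving out libraries, and Cdkn2a at -0.022 (quality weights). Lep was at 0.28 without the libraries high in epididymis markers in both fits, 0.94 with the covariate and -0.73 to 0.44 on leaving out libraries. Odc1 was at -0.037 with the covariate and -0.16 to 0.15 on leaving out libraries. Ncl was at 0.18 (without Xist), 0.14 (quality weights) and -0.20 to 0.036 on leaving out libraries. The cause was not tested.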

Other observations

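Nnt, for the mitochondrial transhydrogenase, which C57BL/6J mice carry in a defective form, was at 8.57 to 16.3 CPM in the 6 KO libraries. In WT it was at 53.7 CPM in W5F5005, 32.1 in W5F5006, 22.9 in W5F5299 and 12.6 to 14.5 in the other 3, so the WT libraries were uneven at this locus (log2 difference -0.73, limma adjusted p 0.337). Odc1, for the rate-limiting enzyme of polyamine synthesis and a classical Myc target, was at 103 ± 28.9 CPM (KO) and 103 ± 35.1 CPM (WT; SD, n = 6 each).

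The 17 tested circadian clock genes had a median log2 difference of 0.19 (13 above 0, none called) and of 0.36 without the libraries high in epididymis markers. Bhlhe40, a clock repressor, stood at 0.67 (limma adjusted p 0.19), with 5 of 6 KO libraries above every WT library. Without the libraries high in epididymis markers Bhlhe40 stood at 0.43. Collagen and matrix genes had a median of -0.45 (24 of 31 below 0), and of -0.17 without the same libraries. The 24 tested p53 targets had a median of 0.02, and of 0.06 without the same libraries. The 20 aminoacyl-tRNA synthetase genes had a median of -0.06 (15 below 0), and of 0.07 (7 below 0) without those libraries. Their median was also above 0 after scaling to equal library totals and with edgeR.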
